A study of Homo sapiens with 20 samples.

Results

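RUNX1 binding was examined at the ends of the ZNF genes, a large family of human genes for zinc finger proteins. Members were all RUNX1 peaks that lay within 1000 bp of either end of a protein-coding gene whose symbol is ZNF followed by digits, in the RefSeq annotation of assembly GRCh38.p14. Of 26642 peaks in all, 237 met this rule, and they lay at 234 of the 509 ZNF genes. The rule picks among the peaks by gene names and positions only, but the peaks themselves were called on the libraries compared.

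RUNX1 was immunoprecipitated from THP-1, an established human cell line derived from an acute monocytic leukemia, and the recovered DNA was sequenced (ChIP-seq). The knockdown cells carried an inducible short hairpin RNA (shRNA) against PU.1, and the control cells carried an inducible scramble shRNA. Both cell types received doxycycline to switch the cassette on, so the groups share the drug and the presence of an induced hairpin. Of 20 samples, 12 were RUNX1 libraries, namely 6 control libraries (3 in batch 1 and 3 in batch 2) and 6 knockdown libraries (2 in batch 1 and 4 in batch 2), and the other 8 were IgG samples, which were not analysed here. A batch is an experimental round, per the study's methods. The replicates came from the same cell line with separate immunoprecipitations and library preparations, so every p-value measures the spread between such libraries only. The labels do not say whether the knockdown or control cells are a clone or a pool. ChIP-seq against RUNX1 gives no level of PU.1, so whether the hairpin worked in these libraries was not checked.

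ZNF proteins bind DNA through arrays of C2H2 zinc fingers, each of which is held together by a zinc ion. Many of them also carry a KRAB domain, which recruits the co-repressor TRIM28 and, through it, the histone methyltransferase SETDB1, and a large share of such proteins silence retroelements. The family grew by repeated local duplication, so that many members sit side by side in clusters on chromosome 19. RUNX1 and PU.1 are transcription factors of blood cells that bind one another and share many binding sites in myeloid cells.

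The sequences below are the 250 bases upstream of 6 ZNF gene starts, each lying at least in part under a member peak. They are shown because they carry the range of outcomes described further on: the strongest peak of the family (ZNF684), a peak on chromosome 19 that was gained (ZNF429), a lost one from the same cluster (ZNF100), and 3 lost peaks on other chromosomes (ZNF143, ZNF408 and ZNF106). They are RefSeq sequences of GRCh38.p14, written 5′ to 3′ on the strand of the gene. Capitals mark TGTGGT, the core of the RUNX motif, and GAGGAAG, a part of the PU.1 motif, with the reverse complement of either motif capitalised as well.
ZNF684 (chr1:40531387-40531636, plus strand): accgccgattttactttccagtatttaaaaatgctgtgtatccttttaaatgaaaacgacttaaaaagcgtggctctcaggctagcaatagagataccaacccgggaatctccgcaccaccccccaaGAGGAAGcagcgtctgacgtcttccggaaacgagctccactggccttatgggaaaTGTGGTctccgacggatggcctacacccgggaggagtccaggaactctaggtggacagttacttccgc
ZNF143 (chr11:9460762-9461011, plus strand): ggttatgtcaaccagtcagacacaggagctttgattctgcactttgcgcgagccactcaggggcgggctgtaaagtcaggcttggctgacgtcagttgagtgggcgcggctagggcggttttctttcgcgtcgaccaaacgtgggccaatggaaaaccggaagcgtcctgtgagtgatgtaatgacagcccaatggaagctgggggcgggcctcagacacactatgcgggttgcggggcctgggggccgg
ZNF408 (chr11:46700781-46701030, plus strand): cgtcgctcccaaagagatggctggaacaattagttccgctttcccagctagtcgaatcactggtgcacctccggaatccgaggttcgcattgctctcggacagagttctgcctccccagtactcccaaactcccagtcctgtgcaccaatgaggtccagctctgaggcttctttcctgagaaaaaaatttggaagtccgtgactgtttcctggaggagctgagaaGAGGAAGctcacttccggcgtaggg
ZNF106 (chr15:42491142-42491391, minus strand): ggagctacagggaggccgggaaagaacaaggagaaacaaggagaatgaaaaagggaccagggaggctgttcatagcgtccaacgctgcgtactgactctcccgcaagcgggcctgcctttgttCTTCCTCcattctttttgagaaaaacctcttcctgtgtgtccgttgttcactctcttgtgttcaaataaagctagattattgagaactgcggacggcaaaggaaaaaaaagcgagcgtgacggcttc
ZNF429 (chr19:21505352-21505601, plus strand): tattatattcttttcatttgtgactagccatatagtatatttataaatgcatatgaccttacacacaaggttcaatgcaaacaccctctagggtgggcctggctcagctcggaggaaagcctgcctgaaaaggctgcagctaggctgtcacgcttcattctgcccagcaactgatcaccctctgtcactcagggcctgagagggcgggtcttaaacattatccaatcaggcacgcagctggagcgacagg
ZNF100 (chr19:21767580-21767829, minus strand): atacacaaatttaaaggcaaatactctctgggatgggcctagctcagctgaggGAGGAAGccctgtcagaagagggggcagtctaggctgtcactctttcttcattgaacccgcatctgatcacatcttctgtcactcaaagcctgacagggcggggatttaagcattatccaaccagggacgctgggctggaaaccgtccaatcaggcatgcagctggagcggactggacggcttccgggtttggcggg
In these letters, ZNF684 held both motifs, ZNF100 and ZNF408 held GAGGAAG, ZNF106 held it on the opposite strand, and ZNF143 and ZNF429 held neither. A match is a description of the letters and not a binding site.

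The 6 control libraries held 630247 to 1199004 reads within peaks, and the 6 knockdown libraries 938745 to 1719840. A member peak held a median of 27 to 72 reads per library, and 222 of the 237 members had at least 10 reads in every library. All values below are normalised counts, that is reads per peak divided by the size factor of the library, unless log2 fold changes (knockdown over control) are named. Control replicate 1 stood apart from the other libraries at gene ends: its mean log2 signal at ZNF ends exceeded that at peaks away from gene ends by 1.14, against 0.685 to 0.834 in the other 5 control libraries. Results that rest on this library are given with and without it. In peak counts, a difference in scaling between libraries and a difference in binding at most peaks cannot be told apart.

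RUNX1 peaks were found at 46.0% of ZNF genes (234 of 509) and at 36.1% of the other protein-coding genes (7055 of 19547). Within the family the share was 44.7% in the clusters of chromosome 19 (101 of 226 genes), 65.0% on chromosome 19 outside clusters (13 of 20) and 45.6% on other chromosomes (120 of 263). On chromosome 19, the genes outside the family stood at 44.7% (539 of 1205). The related zinc finger genes named ZBTB, ZSCAN, ZKSCAN or ZFP stood at 37.5% (33 of 88). These shares describe where peaks were placed and were not tested, since genes that share a region are not independent.

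Most member peaks sat on the gene end itself. Of the 237, 215 spanned the end coordinate, 231 lay next to a single ZNF gene and 6 lay between 2 of them. The promoter table let the start be told from the far end for 207 members. Of these, 197 lay at the start only, 8 at the far end only and 2 at both. Member peaks were 519 to 4465 bp wide, with a median of 1338 bp against 1292 bp for the other gene-end peaks and 889 bp for all peaks. Their median normalised count was 47.5, against 43.3 at other gene ends and 31.2 over all peaks. Per kilobase of peak, the 3 median levels were 33.3, 32.8 and 33.1.

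The comparison of knockdown with control asks how RUNX1 binding at these genes differed when PU.1 was lowered. A gain or loss was called where DESeq2, with batch in the model, gave a Benjamini-Hochberg adjusted p below 0.05 and a fold change above 1.1. Of the 237 ZNF-end peaks, 38 were called (16%), with 9 gains and 29 losses. The background was 42.0% over all peaks (21.3% gained and 20.7% lost) and 25.5% over the other gene-end peaks (1597 of 6259, 393 gained and 1204 lost). The adjusted p-values are over all 26642 peaks. The quasi-likelihood test of edgeR called 52 members (background 47.1%), all 38 among them. Without control replicate 1, DESeq2 called 33 (11 gained and 22 lost), of which 29 were among the 38. In that fit 39.2% of all peaks and 20.5% of the other gene-end peaks were called.

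The median log2 fold change was -0.14 over ZNF ends, -0.17 over the other gene ends and -0.025 over all peaks, but the sign of the ZNF median depends on the scaling, and it was 0.013 when the size factors came from gene-end peaks alone. That scaling moved the median of all peaks to 0.121 and turned the split to 18 gained and 11 lost (29 calls, 20 of them shared with the 38), while over all peaks it called 43.0%, with 7447 gained and 4002 lost. Relative to the median of all peaks, ZNF ends stood at -0.115 in the first scaling and at -0.109 in the second. ZNF-end peaks also spread less than these 2 sets: 89.5% of them lay between -0.5 and 0.5 on the log2 scale, against 80.9% of other gene-end peaks and 59.7% of all peaks. The narrow spread was not particular to the family. The lower and upper quartiles were -0.299 and 0.058 at ZNF ends, and -0.281 and 0.078 at other gene ends on chromosome 19. The background of calls that also exceeded 2-fold was 17.1% over all peaks and 3.69% over other gene ends. Among the members, 2 did so (0.844%), ZNF469 and ZNF648. The median standard error of a member's log2 fold change was 0.176.

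**Figure D1:**
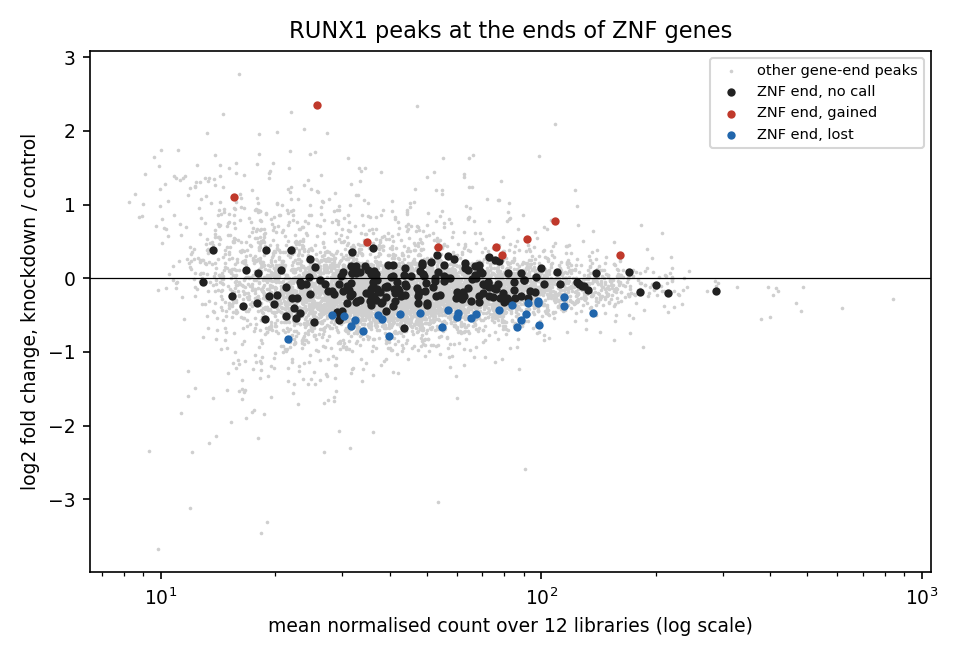
Log2 fold change (knockdown over control) against the mean normalised count over 12 libraries on a log axis, for the other gene-end peaks (grey) and the 237 ZNF-end peaks (black without a call, red gained, blue lost). The single ZNF-end point far above the rest is ZNF469 at 2.35, and the strongest peak, ZNF684, carries no call. With size factors from gene-end peaks, the split of red and blue points would be 18 to 11.

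**Figure D2:**
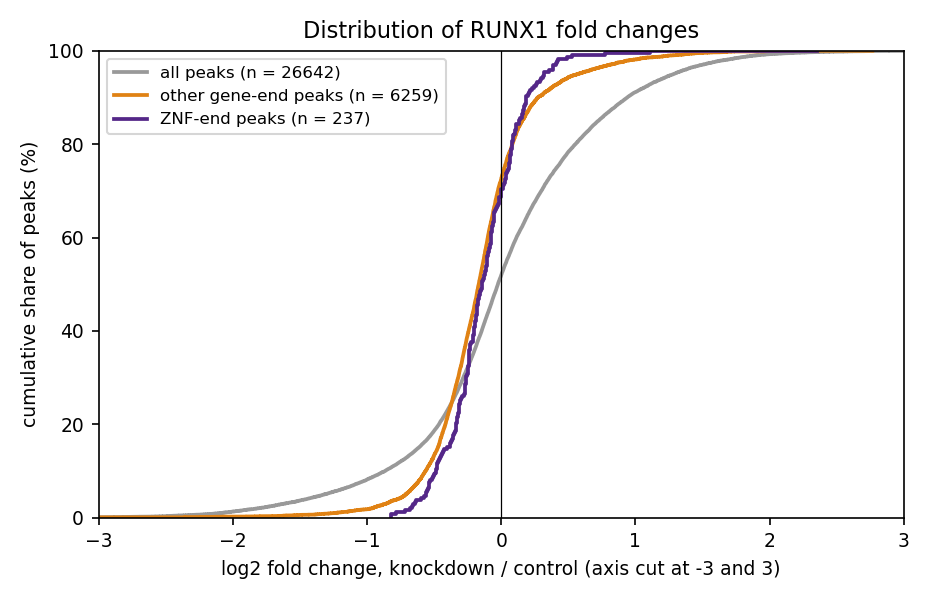
Cumulative share of peaks (%) against log2 fold change for all peaks (grey), other gene-end peaks (orange) and ZNF-end peaks (purple). The ZNF curve is the steepest, with 89.5% of its peaks between -0.5 and 0.5, and its median is -0.14, or 0.013 when the size factors come from gene-end peaks alone.

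Binding rose at 9 ZNF-end peaks, and 4 of these met the rule for description by name (mean count of at least 20 and no overlap of the libraries within either batch). At ZNF469, a gene for which loss of function causes brittle cornea syndrome, the peak at chr16:88439536-88440206 lay inside the gene, 547 bp from its upper end. Control libraries held 4.21 to 13.9 normalised counts (median 9.2) and knockdown libraries 38.2 to 49.3 (median 42.2). The log2 fold change was 2.35 ± 0.28 (SE, n = 6 and 6 libraries, DESeq2 adjusted p = 1.76e-15). The gap between the groups was part of the naming rule and is no added support. With a mean count of 25.8, the peak met the minimum only through the knockdown libraries (mean 42.8, against 8.79 in control). The control counts were among the lowest of the members named, and the call of the fit over both batches held in every alternative run for it.

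The other 3 named gains were on chromosome 19 and smaller. The peak at chr19:58474410-58476721, which covers the far end of ZNF324 and the start of ZNF446, held 66.8 to 94.9 counts in control (median 78.8) and 120 to 157 in knockdown (median 135), and it rose by 0.77 ± 0.13 (SE, DESeq2 adjusted p = 1.74e-08). ZNF649, a KRAB zinc finger gene, held 63.4 to 92.3 in control (median 75.6) and 101 to 119 in knockdown (median 106) at chr19:51904030-51905286, a rise of 0.53 ± 0.12 (DESeq2 adjusted p = 0.000113). ZNF429, whose upstream sequence is printed above, held 62.2 to 67.6 in control (median 64.4) and 75.5 to 96.2 in knockdown (median 90.5) at chr19:21505407-21506980, a rise of 0.42 ± 0.13 (DESeq2 adjusted p = 0.0057). In all 3 peaks, every knockdown library lay above every control library. ZNF648 was gained at 1.11 ± 0.30 (DESeq2 adjusted p = 0.000853) but is named here after its values were seen, because its mean count lay under the minimum, with 5.2 to 13 counts in control and 18.4 to 24.9 in knockdown. The remaining 4 gains, at ZNF436, ZNF319, ZNF221 and ZNF354A, lay between 0.31 and 0.49 and were likewise named after their values were seen.

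Binding fell at 29 ZNF-end peaks, of which 14 met the same rule, and the 8 of these 14 with the largest loss are described. On chromosome 8, ZNF16 held 41.1 to 75.4 counts in control (median 45.3) and 20.5 to 38.8 in knockdown (median 28.5), with a log2 fold change of -0.78 ± 0.20 (SE, DESeq2 adjusted p = 0.000517). ZNF707, on the same chromosome, held 97.3 to 140 in control (median 128) and 60.6 to 89.5 in knockdown (median 76.6), with -0.63 ± 0.13 (DESeq2 adjusted p = 4.83e-06). Neither peak had a knockdown library as high as any control library.

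ZNF100, in the chromosome 19 cluster that also holds the gained ZNF429, was lost as well. Its peak at chr19:21766814-21768021 held 33.0 to 49.4 counts in control (median 45.1) and 14.3 to 29.1 in knockdown (median 27.3), with a log2 fold change of -0.72 ± 0.19 (SE, DESeq2 adjusted p = 0.000851). Knockdown replicate 3 lay far below the others, and without it the change was -0.64 (DESeq2 adjusted p = 0.00371). The upstream sequences of ZNF429 and ZNF100 printed above thus belong to 2 starts of the same cluster whose peaks moved in opposite directions.

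The starts of ZNF408 and ZNF106 lie beside ends of other genes. The ZNF408 peak at chr11:46700334-46701419 also lay at an end of ARHGAP1, and it held 48.6 to 79.3 counts in control (median 68.6) and 36.3 to 51.1 in knockdown (median 41.8), with -0.66 ± 0.16 (SE, DESeq2 adjusted p = 0.000141). The ZNF106 peak at chr15:42490646-42491453 also lay at an end of SNAP23, a gene of membrane fusion, and held 31.2 to 44.9 in control (median 38.4) and 17.4 to 34.4 in knockdown (median 22.7), with -0.65 ± 0.21 (DESeq2 adjusted p = 0.00627). In both peaks the groups overlapped over all libraries but not within a batch, and the counts cannot be divided between the genes that share an end. After the fold changes were centred on the median of their 10 Mb window, the ZNF408 change was -0.365 and was still called (adjusted p = 0.0475 from the DESeq2 standard error), and the ZNF106 change was -0.40 and was not (adjusted p = 0.107).

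The other 3 large losses were at gene starts too. The peak at chr16:89718783-89723247, shared by ZNF276 and VPS9D1, held 79.0 to 172 counts in control (median 99.2) and 56.8 to 90.2 in knockdown (median 64.5), with -0.56 ± 0.15 (SE, DESeq2 adjusted p = 0.000547). Control replicate 1 was the highest library there, and without it the adjusted p was 0.00437. ZNF556, at chr19:2866649-2868449, held 66.8 to 106 in control (median 72.3) and 46.1 to 62.1 in knockdown (median 53.9), with -0.54 ± 0.15 (DESeq2 adjusted p = 0.00103). ZNF213, at chr16:3134108-3135585, held 28.8 to 52.0 in control (median 37.2) and 23.3 to 29.1 in knockdown (median 24.9), with -0.57 ± 0.20 (DESeq2 adjusted p = 0.0148). The ZNF213 call rested on single libraries, because the adjusted p was 0.0562 without control replicate 1, 0.0612 without knockdown replicate 2 and 0.0669 without control replicate 4, and it was 0.0801 with size factors from gene-end peaks.

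**Figure D3:**
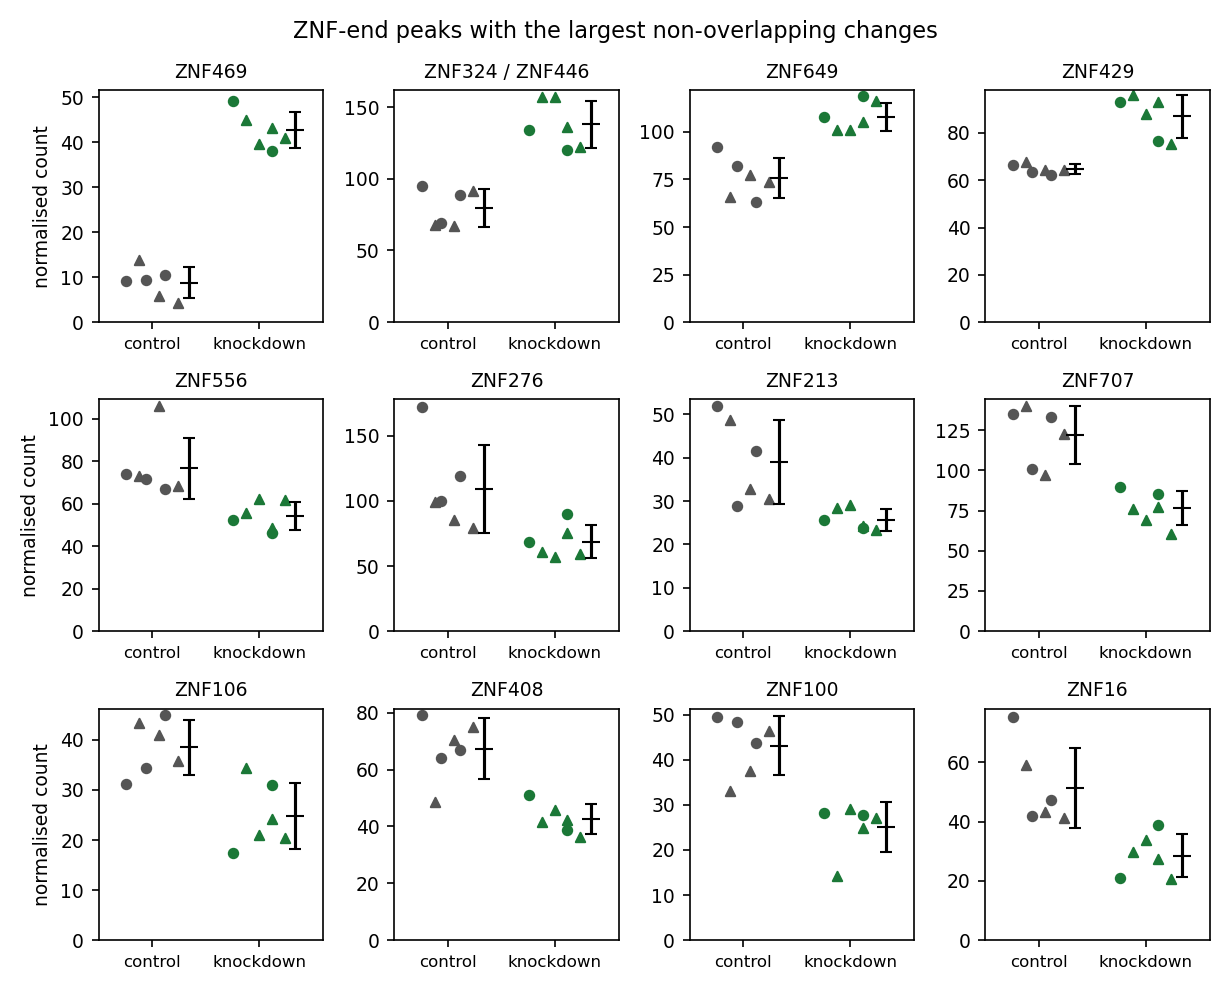
Normalised counts of the 12 ZNF-end peaks with the largest changes that met the naming rule, 4 gained and 8 lost, in each control (grey) and knockdown (green) library, with circles for batch 1, triangles for batch 2 and bars for the mean and SD over 6 libraries. All axes start at 0, and within each batch no knockdown library overlaps a control library.

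The strongest ZNF-end peaks were not called. The peak at the start of ZNF684 (chr1:40530987-40532225), whose upstream sequence holds both motifs, had the highest mean count of all members, 289. It held 283 to 329 counts in control (median 307) and 249 to 295 in knockdown (median 263), with a log2 fold change of -0.18 ± 0.08 (SE, DESeq2 adjusted p = 0.0509) and overlapping groups. ZNF687, a gene mutated in a familial form of Paget disease of bone, held 172 to 270 in control (median 239) and 186 to 215 in knockdown (median 198), with -0.20 ± 0.09 (DESeq2 adjusted p = 0.0545). Both lay close to the threshold and crossed it in some alternatives: the adjusted p without knockdown replicate 6 was 0.0382 for ZNF684, and that without control replicate 4 was 0.0123 for ZNF687. Centred on their 10 Mb windows, they stood at -0.038 and -0.012, and with size factors from gene-end peaks at -0.028 and -0.055, and neither was called. The other 3 of the strongest 5 were ZNF627 at -0.09 (95% interval -0.26 to 0.08), ZNF292 at -0.18 (-0.37 to 0.01) and ZNF670 at 0.09 (-0.11 to 0.29), none of them called.

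Of 18 ZNF genes with known roles chosen for description, 8 had a peak at an end. ZNF143, an activator that binds many promoters, held 90.2 to 125 counts in control (median 110) and 66.1 to 82.3 in knockdown (median 76.5) at chr11:9459694-9462478, and it was lost at -0.49 ± 0.12 (SE, DESeq2 adjusted p = 0.000263) with no overlap between the groups. Centred on its 10 Mb window, this change was -0.25 and was not called (adjusted p = 0.0837). ZNF335, part of histone methyltransferase complexes, was called lost at -0.26 ± 0.11 (DESeq2 adjusted p = 0.0436), with 119 to 139 counts in control (median 126) and 91.8 to 120 in knockdown (median 103). That call was fragile: in 9 of the 12 fits that left out a library the adjusted p was between 0.053 and 0.134.

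The other 6 peaks of this list carried no call. ZNF274, which brings SETDB1 to the far ends of other ZNF genes, stood at -0.17 (95% interval -0.41 to 0.06). ZNF384, a fusion partner in acute leukemia, stood at -0.11 (-0.44 to 0.23), ZNF281 at -0.11 (-0.48 to 0.27), ZNF148 at -0.05 (-0.32 to 0.22) and ZNF687 as given above. ZNF521, a factor of blood progenitors, had 2 peaks near its upper end on chromosome 18. The stronger one held 33.4 to 46.8 counts in control and 29.6 to 33.0 in knockdown (log2 fold change -0.31, 95% interval -0.67 to 0.05, and -0.186 after centring or -0.165 with gene-end size factors). The weaker, chr18:25351609-25352289, which is described after its values were seen, held 10.2 to 53.3 in control and 4.75 to 21.7 in knockdown and was called lost (-0.82 ± 0.31, DESeq2 adjusted p = 0.0242), although its groups overlapped.

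The comparison was repeated in each batch alone. In batch 1, DESeq2 called 1 ZNF-end peak, ZNF469 (background 12% of all peaks and 3.45% of other gene ends). In batch 2 it called 16 (6.75%, background 25.8% of all peaks and 12.6% of other gene ends), with ZNF469 called in both. The counts depended on the tool, as edgeR called 17 in batch 1 and 35 in batch 2, although its share over all peaks within a batch was not computed. In batch 1, leaving out a knockdown library left 1 in that arm, which was taken to vary like the controls, and such fits made no call. Batch 2 had 5 to 10 DESeq2 calls without control replicate 4, 5 or 6 or without knockdown replicate 4, 5 or 6. The share of all peaks called in these fits was not computed, so whether the fall is particular to the members is not known. All 38 calls of the pooled fit had the same sign in both batches. Since these calls were chosen on both batches together, this agreement is not independent support for them. The median log2 fold change over the members was -0.14 in batch 1 and -0.12 in batch 2. The interaction of genotype with batch was called by DESeq2 at no member, and at none of all 26642 peaks. An unadjusted DESeq2 p under 0.05 was reached at 2 members (0.844%), against 2.51% of all peaks. Knockdown and control counts stayed apart within both batches at 8.86% of the 237 members (5 above and 16 below control). The background was 28.3% over all peaks and 13.6% over other gene ends. Of these members, 19 were among the 38 calls.

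Turning to the clusters of chromosome 19, a cluster was taken as a run of at least 5 ZNF genes with at most 250000 bp between neighbours. There were 12 such runs with 226 genes, and 99 ZNF-end peaks lay next to their genes. Of these, 14 were called (14.1%, 4 gained and 10 lost), or 8 without knockdown replicate 1, a fit that called 36.6% of all peaks. On other chromosomes 24 of 125 ZNF-end peaks were called (19.2%, 5 gained and 19 lost), and none of the 13 on chromosome 19 outside clusters was called by DESeq2 (3 at an unadjusted p under 0.05, and 2 called by edgeR). Other gene ends on chromosome 19 stood at 92 of 467 (19.7%, 32 gained and 60 lost), and the background for all of these is the 42.0% given above.

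The median log2 fold change was -0.08 over cluster peaks, -0.18 over ZNF ends on other chromosomes and -0.11 over the other gene ends on chromosome 19, while with size factors from gene-end peaks the cluster median was 0.069 and that of the other chromosomes -0.033. The difference between cluster peaks and those on other chromosomes was 0.102 in both scalings. This difference has no test of its own, because cluster peaks share a chromosome and are not independent. Cluster peaks had a median of 49.3 counts and a median width of 1287 bp, against 44.1 counts and 1411 bp on other chromosomes. How the mapping treated reads that align to more than 1 of the duplicated genes is not given in the sources used here, and its part in the counts was not tested.

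The clusters were not alike. Peaks were found at the ends of 53.5% of the 43 genes between ZNF264 and ZNF446 (23 genes, 21 peaks) but at 32.0% of the 25 genes between ZNF737 and ZNF91 (8 genes, 8 peaks). The cluster from ZNF737 to ZNF91 held 3 lost peaks and 1 gained peak, the ZNF100 and ZNF429 peaks among them, with log2 fold changes from -0.72 to 0.42. The cluster from ZNF575 to ZNF180 had the highest median, 0.13 over 10 peaks with 1 gain and no loss, and that from ZNF317 to ZNF846 the lowest, -0.30 over 7 peaks with 2 losses.

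In the 5 clusters below 30 Mb, 8 of 33 peaks were lost and 1 was gained (27.3%, median log2 fold change -0.115), whereas in the 7 clusters above it 2 of 66 were lost and 3 were gained (7.58%, median -0.045). This division was chosen after the values were seen. The other gene ends of chromosome 19 stood at 14 gained and 42 lost of 248 below 30 Mb (22.6%, median -0.158). Above it they stood at 18 gained and 18 lost of 219 (16.4%, median -0.056). Over all peaks of chromosome 19, 35.9% were called below 30 Mb and 31.7% above it.

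**Figure D4:**
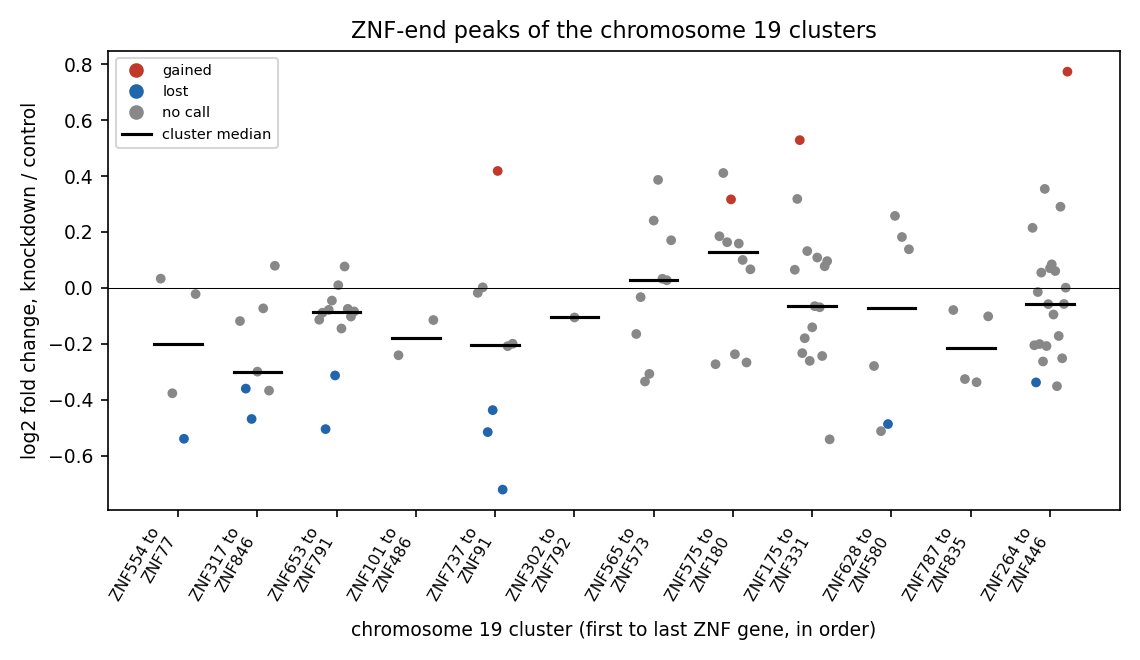
Log2 fold change (knockdown over control) of each ZNF-end peak in the 12 chromosome 19 clusters, in order along the chromosome, with gained peaks in red, lost peaks in blue, peaks without a call in grey and the cluster median as a bar. The 5 clusters on the left hold 8 of the 10 losses, and medians run from -0.30 to 0.13 on the main scaling.

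To compare libraries rather than peaks, the mean log2(normalised count + 1) of the other gene-end peaks was subtracted from that of the ZNF ends in each library. This relative signal ran from 0.114 to 0.149 in control and from 0.153 to 0.183 in knockdown, and the groups did not overlap. The difference between the group means was 0.0149 in batch 1 and 0.0437 in batch 2, with a mean of 0.0293. It is a small difference on the log2 scale, and since the members were chosen with earlier results known it was not tested. For cluster peaks the relative signal was 0.0776 to 0.168 in control and 0.140 to 0.241 in knockdown, a mean difference of 0.0659 with overlapping groups. For ZNF ends on other chromosomes the difference was -0.0019. Against the other gene ends of chromosome 19 instead, the cluster peaks differed by 0.0077 between knockdown and control, with overlapping groups.

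**Figure D5:**
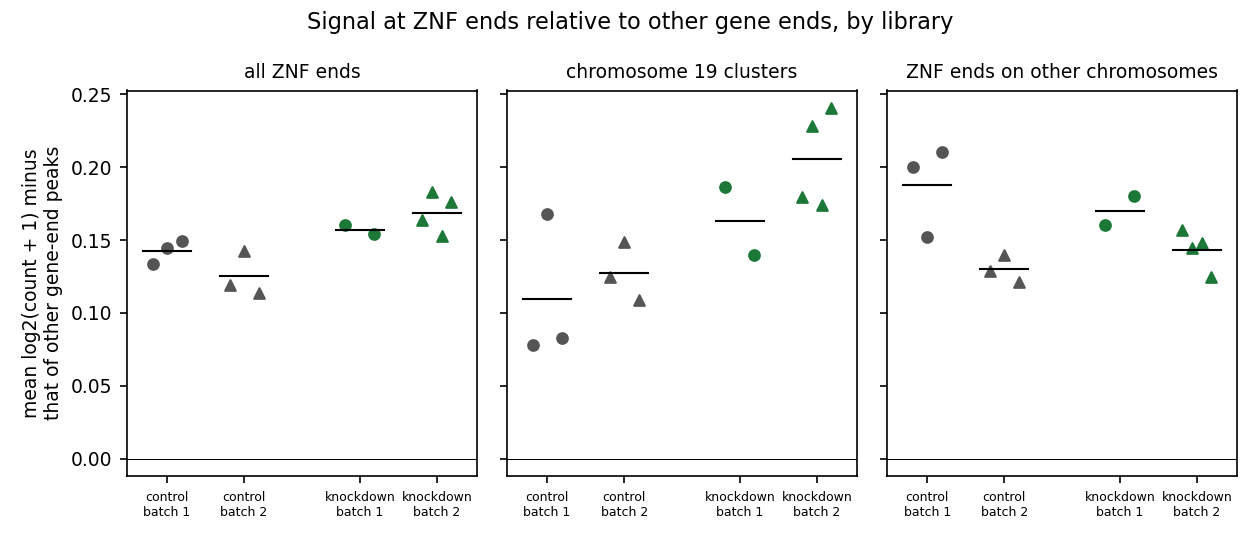
Mean log2(normalised count + 1) at ZNF ends minus that at other gene ends, per library, for all ZNF ends, for the chromosome 19 clusters and for ZNF ends on other chromosomes, with bars for the mean of each group and batch. Control libraries lie between 0.114 and 0.149 and knockdown libraries between 0.153 and 0.183 in the left panel, while in the right panel the groups overlap.

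The calls were also counted by position. At the 197 peaks that lay at the start only, 24 were called (12.2%, 5 gained and 19 lost), against the background of 42.0% given above, and none of the 8 at the far end only was called by DESeq2 (1 at an unadjusted p under 0.05, and 1 called by edgeR). Of the 30 peaks whose gene end could not be told, 13 were called (43.3%, 3 gained and 10 lost). At the 33 peaks shared with an end of a gene outside the family, 1 was gained and 5 were lost (18.2%, median -0.24), and at the 204 others 8 were gained and 24 were lost (15.7%, median -0.12).

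Chromosome 8 held 8 ZNF-end peaks, of which 4 were lost, ZNF16 and ZNF707 among them, with a median log2 fold change of -0.40. The other gene ends of that chromosome had 113 calls among 227 peaks (49.8%, 11 gained and 102 lost) and a median of -0.36. Centred on the median of their 10 Mb windows, 3 of the 8 were called lost, with a median of -0.20. The other gene ends of chromosome 8 had 61 calls under the same centring (26.9%, median -0.191). Over the whole family, centring gave 32 calls (13.5%, 7 gained and 25 lost), of which 24 were among the 38. The share was 14.1% in the clusters and 13.6% on other chromosomes, against 22.2% of other gene ends and 40.8% of all peaks, each centred.

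The families most like the ZNF genes, named ZBTB, ZSCAN, ZKSCAN and ZFP, had 37 peaks at their ends, of which 3 were gained and 5 were lost (21.6%, median log2 fold change -0.13), against 42.0% of all peaks and 25.5% of other gene ends called. The genes through which KRAB zinc finger proteins act were examined as a list of 29 co-repressor and heterochromatin genes, of which 15 had a peak at an end, 17 peaks in all. None was called by DESeq2 (background 42.0% of all peaks and 25.5% of other gene ends), although 2 had an unadjusted p under 0.05, and edgeR called 1, TRIM24. SETDB1, the histone methyltransferase of the complex, held 60.7 ± 3.2 counts in control and 49.4 ± 4.86 in knockdown (SD, n = 6 each), with a log2 fold change of -0.29 (95% interval -0.58 to 0.002). TRIM24, a relative of TRIM28, stood at -0.41 (-0.81 to -0.019), and DESeq2 called it lost without control replicate 2, without control replicate 5 or without knockdown replicate 3. DNMT1, the maintenance DNA methyltransferase, stood at -0.21 (-0.52 to 0.09). The list's median was -0.182, against -0.17 over other gene ends, and 16 of 17 peaks lay under 0, against 72.5% of other gene ends and 52.0% of all peaks. The list's median was -0.033 with size factors from gene-end peaks.

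The RefSeq promoter table, which runs from 250 bases before to 50 bases after each start, held 430 of the 509 ZNF genes. TGTGGT, on either strand, was in 13.3% of the 241 ZNF windows under a peak and in 11.7% of the 315 not under one, against 11.3% of all 22199 windows. GAGGAAG, on either strand, was in 16.2% and 14.9% of those ZNF windows and in 14.4% of all windows. Of the 241 windows, 22 lay under peaks that were not members, with TGTGGT in 5 of them (22.7%) and GAGGAAG in 3 (13.6%). The 2 motifs do not contain one another. Of the 22 windows under lost member peaks, 7 held GAGGAAG (31.8%), against 29 of the 193 under members without a call (15%). TGTGGT was in 3 of the 22 (13.6%) and in 24 of the 193 (12.4%). None of the 4 windows under gained members held either motif. Windows of the same gene overlap, so these shares were not tested. ZNF windows under a peak had a median of 23 CpG dinucleotides, against 20 in ZNF windows not under a peak, 26 in other windows under a peak and 15 in other windows not under one.

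At the edge of the 1000 bp limit, the members farthest from a gene end were at ZNF76 and ZNF77. ZNF76, a close relative of ZNF143, had a peak 986 bp away at chr6:35296971-35299150, also near DEF6, with 112 to 152 counts in control and 89.1 to 113 in knockdown. It was called lost (log2 fold change -0.38, DESeq2 adjusted p = 0.00338). ZNF77 had a peak 934 bp away with 34.0 to 41.1 counts in control and 32.3 to 46.6 in knockdown (-0.022). Just outside were a second peak of ZNF684, 1068 bp away at chr1:40532705-40533432 (-0.40, DESeq2 adjusted p = 0.00625), and a peak of ZNF541, 1095 bp away at chr19:47521785-47522768 (0.89, DESeq2 adjusted p = 1.34e-05). Both passed the thresholds for a call but are not members.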

How the data were processed

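RUNX1 ChIP-seq of 6 control and 6 knockdown THP-1 libraries was analysed. The authors, according to the methods, aligned reads with bowtie2, removed duplicates, called peaks with macs2 per condition and batch, kept peaks reproducible between batches, merged them over conditions and counted reads with featureCounts. Each deposited value is a raw, not normalized read count of 1 peak in 1 library, and the deposited peak widths in bp are other information used as description. Peaks were called on the libraries compared. The methods name a mouse build, and the labels list GRCm38 and GRCh38. With the coordinates as GRCh38, 24.4% of peaks lay within 1000 bp of a protein-coding gene end, against 5.48% to 7.58% when moved by 10000 to 1000000 bp, so GRCh38 was used. The gene table gives no exons or strand, so starts were taken from the RefSeq promoter table.

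Differential binding was tested over all 26642 peaks with DESeq2 1.42.0 in R 4.3.3 (Wald test, median-of-ratios size factors, batch as covariate), with the same test in each batch and for the interaction of genotype with batch. Intervals are 95% (1.96 standard errors). Scores per library used log2(normalised count + 1). Distance is the gap between the peak's edge and the gene end. The named peaks were, among called members with a mean count of at least 20 and no overlap within either batch, the 8 largest gains (4 existed) and the 8 largest losses, then the 5 strongest peaks, the strongest peak of each of 18 listed ZNF genes, and the members nearest the limit. No peak lay next to 3 or more ZNF genes, for which a further rule existed. Members, lists and rules were chosen with earlier results of these data known. The tests were repeated with edgeR 4.0.16 (quasi-likelihood test with TMM), with other size factors, covariates, filters, distances and cluster definitions, centring on 10 Mb windows and leaving out each library. Both tools were tested on simulated counts. Protein features of the ZNF genes were not analysed here. No duplicated libraries were found, since counts of libraries of the same group differed beyond sampling noise.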

Additional observations from a re-analysis of the deposited data

Results flagged for a closer look

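A library far from the others of its group was searched for in 62 groups of 6 libraries, by the gap to the nearest library as a share of the range (Dixon's criterion). Chance flags about 1 in 20 groups, that is 3.1 of 62, and 3 were found. The mean log2 signal at ZNF ends minus that at peaks away from gene ends was 1.14 in control replicate 1, and the remaining 5 controls ranged from 0.685 to 0.834. The ZNF556 peak held 106 normalised counts in control replicate 5, against 66.8 to 74.1 in the others, and without that library the peak stood at -0.42 on the log2 scale (DESeq2 adjusted p = 0.0256). The ZNF100 peak held 14.3 in knockdown replicate 3, against 24.9 to 29.1 in the others, and without it the change was -0.64 (DESeq2 adjusted p = 0.00371). The part of these libraries in the other results is given by the values without them.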

How the results depend on the processing

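The number of called ZNF-end peaks (38) was 52 with edgeR, which included all 38, and 26 to 44 when a library was left out. It was 37 with TMM size factors, 36 with total in-peak reads, 47 without batch, 27 among the 222 members with at least 10 counts in every library, and 34, 50 and 35 with a limit of 500 bp, of 2000 bp or measured from the peak centre. With the replicate block it was 14 (4 gained and 10 lost), and cluster calls fell to 3. Over all peaks the called share was 47.1% with edgeR, 36.6% to 40.4% without a library, 42.0% with TMM and 41.9% with total in-peak reads. It was 43.8% without batch, 32.2% of the peaks that passed the filter of 10 counts, and 27.4% with the replicate block (12.4% of other gene ends). The labels do not say that same-numbered libraries are pairs, and replicate 3 lies in different batches. Deviations of same-numbered libraries within a batch correlated between -0.064 and 0.014, which shows no pairing but cannot exclude it. Counting noise enters every value, and in batch 1 the 2 knockdown libraries mirror each other around their mean. The median log2 fold change (-0.14) was 0.013 with size factors from gene-end peaks, -0.085 with the filter of 10 counts, and -0.165 to -0.099 without single libraries. Leaving out libraries gave 0.078 to 0.124 for clusters minus other chromosomes (0.102), 8 to 15 cluster calls (14; 8 without knockdown replicate 1), 0.02 to 0.044 for the ZNF minus the other gene-end median (0.028), 0.0264 to 0.0337 for the score per library, 0 to 1 calls in batch 1 and 5 to 12 in batch 2 (5 without control replicate 5). With edgeR, 17 peaks were called in batch 1 and 35 in batch 2 (shares over all peaks not computed), and 1 co-repressor peak, TRIM24. Without single libraries 0 to 1 co-repressor peaks were called. Of 468 alternative values of the 26 named peaks, 438 kept their side of the threshold, 24 lost the call and 6 gained one. Called peaks among the 438 kept their direction, but peaks without a call could change sign. With gene-end size factors, for example, ZNF281 went from -0.106 to 0.04 and ZNF148 from -0.051 to 0.097. Besides those given above, calls were lost with the replicate block at ZNF213 (0.101), ZNF335 (0.193), ZNF429 (0.128), ZNF100 (0.0519) and ZNF76 (0.0648), at ZNF335 after centring (0.192) and with total in-peak reads (0.0633), and at ZNF335 (-0.114, adjusted p 0.426) and ZNF76 (-0.236, 0.0967) with gene-end size factors, an alternative for named peaks chosen after seeing the data. Causes were not tested. With 27 to 72 reads per median member and library, changes under about 2 standard errors (median standard error 0.176) were not detectable.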
